A study of Mus musculus with 8 samples.

Results

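Transcripts of 40 genes of the T cell receptor complex and its proximal signaling apparatus were examined, chosen by name as chains of the receptor complex, its coreceptor, proximal kinases, adaptors, effector enzymes, accessory surface receptors and negative regulators. All 40 were among the 11233 genes listed in the data, and all 40 had a mean of at least 10 normalized counts over the libraries, as did 11032 genes in all. The T cell receptor recognizes peptide on MHC molecules but has no enzyme activity of its own, and signals through the CD3 chains, whose cytoplasmic tyrosine motifs are phosphorylated by the kinase LCK. The kinase ZAP-70 then docks on these motifs and phosphorylates the adaptors LAT and SLP-76, on which phospholipase C gamma, VAV1 and the RAS activators gather to start calcium, MAP kinase and NF-κB signaling. Phosphatases, ubiquitin ligases, diacylglycerol kinases and inhibitory adaptors hold the same cascade back.

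Bulk RNA-Seq was performed on CD4+ Tconv cells sorted as Foxp3EGFP-negative T cells from B16-F10 tumors, a transplantable mouse melanoma implanted under the skin. There were 4 libraries of CCR8+ and 4 of CCR8- cells. The hosts were Foxp3EGFP-DTR mice, in which the Foxp3 locus drives EGFP and the diphtheria toxin receptor, and all of them received diphtheria toxin (DTx), so that both populations came from animals depleted of Treg cells and no PBS-treated group was analysed here. Cells were taken on day 16 after implantation from mice of both sexes aged 8 to 14 weeks. The comparison asks how CCR8+ Tconv cells, a population marked by a chemokine receptor, differ from CCR8- Tconv cells of the same kind of tumor. The labels number the replicates of each population 1 to 4, and the paper calls them biological replicates, all isolated on the same day. The sources used here do not state whether a number stands for a mouse or whether cells of several mice were pooled. The p-values therefore measure the spread between these libraries.

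Values are normalized counts, namely reads per gene divided by a factor for each library. The libraries held between 12067780 and 17802628 reads in listed genes, and 3 reads were worth 2.21 to 3.42 normalized counts, a limit that covers counting error only, because without molecular identifiers copies made by amplification are counted again. No member was at 0 in any library. The libraries differed in completeness, since 242 genes were at 0 in CCR8- replicate 1 that had at least 100 normalized counts in the 7 others, against 44 and 36 such genes in replicates 1 and 3 of CCR8+ cells and 0 in the rest. The sort was visible in Ccr8 itself, at 3546 ± 2284 normalized counts in CCR8- and 20104.5 ± 16630.4 in CCR8+ cells (SD, n = 4 each), without overlap. Its log2 fold change was 2.37 (SE 0.62, adjusted p = 0.829 by limma). Of the markers of other cell types, those of macrophages and monocytes (8 of 8 listed) summed to 27.6 to 53565 in CCR8- and 2238 to 27784 in CCR8+ libraries. Their medians were 2191 and 16042, the highest value being that of CCR8- replicate 4. The markers of melanoma cells (5 of 5) summed to 105 to 17214 and 232 to 21698, with medians of 4923 and 2721. The part of such cells in the values of the members was not tested. Cd8a and Cd8b1 together came to 980.1 to 3805 and to 478 to 1227, and of the B cell genes Cd79a was at 17.0 to 259 and 0 to 48.7, with Ms4a1 at 0 throughout.

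Transcripts of all members were present in both populations, and no difference of a member between CCR8+ and CCR8- Tconv cells passed the test. Fold changes are CCR8+ over CCR8- on the scale of log2(normalized count + 1), tested with limma and adjusted over all 11032 genes by the Benjamini-Hochberg method, with a call at an adjusted p under 0.05. At that limit 0 of the 40 members and 0 of all genes (0%) were called, the members having adjusted p-values between 0.838 and 0.999. On the recovered reads edgeR called 0 members and 0 of all genes (0%), and DESeq2 called 0 members and 27 of all genes (0.245%). At an unadjusted limma p under 0.05 there were 0 members higher in CCR8+ cells, against 2.8% of all genes, and 4 members lower (10%), against 2.29%. These 4 were Pag1, Sla2, Dgka and Prkcq, 3 of them negative regulators of the receptor and the last a kinase that activates NF-κB. In bulk samples fewer cells that express a gene and less RNA per cell cannot be told apart.

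The lean of the members was downward but small. Their median log2 fold change was -0.18, against 0.039 over all tested genes, and 26 of 40 members (65%) were below 0, against 47.6% of all genes. The 95% interval of the fold change lay between -1 and 1 on the log2 scale, that is within a factor of 2 either way, for 22 of the 40 members (55%) and for 20.8% of all genes. The members were also more abundant than most genes, with a median of 2491 normalized counts against 333. Role by role, the median log2 fold change was 0.16 for the receptor chains and CD4, -0.28 for the activating kinases and CD45, -0.18 for the adaptors, -0.21 for the effector enzymes with BCL10 and MALT1, -0.12 for the accessory surface receptors and -0.43 for the negative regulators. Alongside, 5 other T cell genes that are no members (Thy1, Bcl11b, Cd28, Il7r and Cd27) summed to 16632 to 20339 normalized counts in CCR8- and 14064 to 16551 in CCR8+ libraries, with no overlap. Of all genes taken singly, 2.03% had no overlap in this direction. A sum is weighted toward its most abundant genes, and the part of these 5 genes in the lean of the members was not tested.

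**Figure D1:**
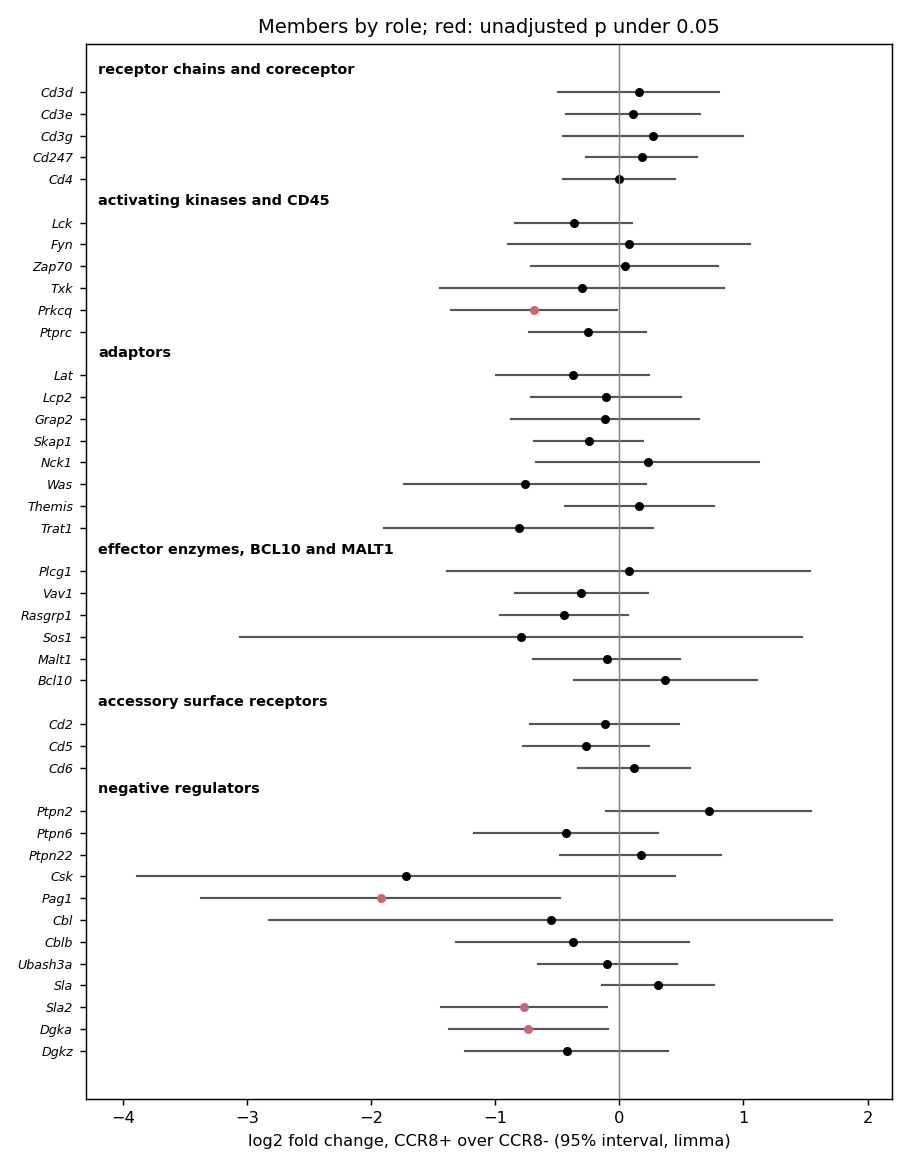
Log2 fold changes of the 40 members (x axis, CCR8+ over CCR8-, on log2(normalized count + 1)), grouped by role on the y axis; points are limma estimates from 4 libraries against 4 and bars their 95% intervals. The receptor chains and Cd4 sit between -0.0028 and 0.27, the red points are the 4 members with an unadjusted p under 0.05, and Cbl, Sos1 and Csk have the widest bars.

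Direction was also read within the 4 same-numbered pairs of libraries. In all 4 pairs 0 members were higher in CCR8+ cells, against 8.44% of all genes, and 8 members were lower (20%), against 8.1%. The 8 were Prkcq, Ptprc, Lat, Trat1, Rasgrp1, Csk, Pag1 and Sla2. The median difference of the members was -0.13, -0.24, -0.28 and -0.0055 on the log2 scale in pairs 1 to 4. Over all genes it was 0, -0.0074, 0 and -0.0060. Members lower numbered 23, 34, 29 and 20 (57.5%, 85%, 72.5% and 50%), against 41.6%, 50.5%, 50.0% and 50.4% of all genes. Pair 4 thus had no lean, and pair 2 held the most members on the lower side. Groups that did not overlap were found for 0 members higher in CCR8+ cells, against 2.37% of all genes, and for 1 member lower, Sla2, against 2.03%. CCR8+ replicate 3 was the lowest library of its population for 19 of 40 members, against 28.1% of all genes, and CCR8- replicate 4 for 17, against 17.3%.

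These counts depended on single libraries. With 1 library left out the log2 fold change moved by over 1.5 times or turned its sign for 31 of the 40 members, and it turned for 15 of them. This limit is relative to the fold change, so a value near 0, such as that of Cd4 (-0.0028), passes it with a small shift. The share over all genes was not taken for this count. The count at an unadjusted p under 0.05 was 1 without CCR8+ replicate 3, against 379 of all 10980 genes. It was 2 without CCR8- replicate 1, CCR8- replicate 2 or CCR8+ replicate 4, against 570 of 11010, 458 of 10999 and 506 of 10974 genes. The count of members with no overlap, 1 with all libraries, was 7 without CCR8- replicate 4, 4 without CCR8+ replicate 1 and 3 without CCR8+ replicate 2, while the share of all genes with no overlap went from 4.4% to 8.8%, 7.24% and 7.73%. It was 2 without CCR8- replicates 1, 2 or 3 or CCR8+ replicate 4, with shares of 7.74%, 6.35%, 7.89% and 7.22% of all genes.

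**Figure D2:**
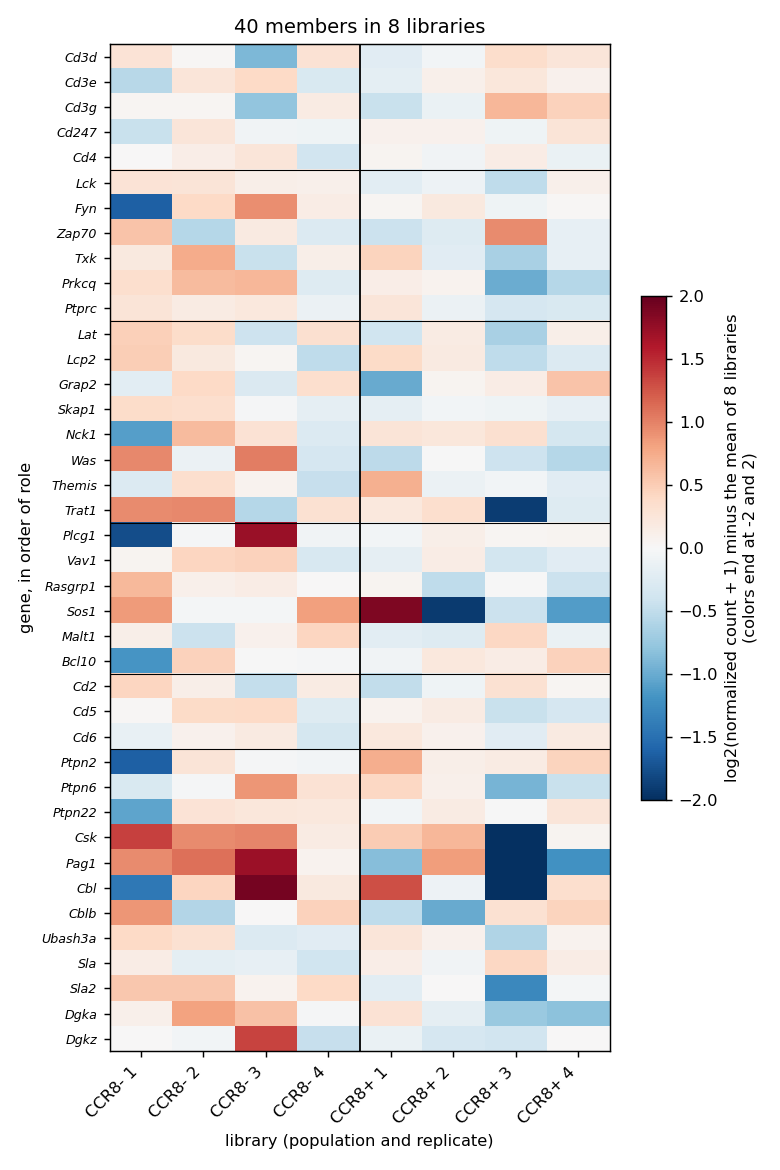
Level of each member (rows, in order of role) in each of the 8 libraries (columns), as log2(normalized count + 1) minus the mean of the gene over the libraries, with colors ending at -2 and 2. The receptor rows are mostly pale, with Cd3d and Cd3g low together in CCR8- replicate 3, while the rows of Csk, Pag1, Cbl, Trat1 and Sla2 are at their darkest blue in CCR8+ replicate 3.

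Of the receptor chains and CD4, 0 of 5 had an unadjusted limma p under 0.05, against 2.8% of all genes higher and 2.29% lower. The intervals of all 5 lay within -1 and 1, against 20.8% of all genes. Cd3d, Cd3e and Cd3g encode the CD3 delta, epsilon and gamma chains, which pair with the antigen-binding chains and carry them to the cell surface. Cd3d transcripts were at 17769.7, 15047, 7918 and 17945 normalized counts in CCR8- replicates 1 to 4 and 12588, 14171, 18846 and 17424 in CCR8+ replicates 1 to 4, a log2 fold change of 0.16 (SE 0.30, 95% interval -0.49 to 0.81). Cd3g was at 25989, 26080.4, 14710.3 and 28359 in CCR8- and 18556, 23022, 40328 and 34825 in CCR8+ replicates, with a log2 fold change of 0.27 (SE 0.33, -0.45 to 0.99). For both genes CCR8- replicate 3 was the lowest library of all and CCR8+ replicate 3 the highest, and the populations overlapped. Without CCR8- replicate 3 the log2 fold change of Cd3d was -0.12 and that of Cd3g 0.055. Cd3e was at 4199, 7316, 8124 and 4979 in CCR8- and 5377, 6579.7, 7232 and 6558 in CCR8+ cells. Its log2 fold change of 0.11 (SE 0.24, -0.43 to 0.65) was -0.058 without CCR8- replicate 1. In contrast to its neighbors, Cd3e was highest in CCR8- replicate 3, and the CCR8+ values lay inside the range of the CCR8- values.

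Cd247 encodes the zeta chain, which holds most of the signaling motifs of the complex. It was at 3470.2, 5566, 4513 and 4435 normalized counts in CCR8- and 5008, 5024, 4451 and 5664 in CCR8+ replicates, a log2 fold change of 0.18 (SE 0.20, -0.27 to 0.62). The populations overlapped, with the lowest value in CCR8- replicate 1, without which the log2 fold change was 0.061. Of the exonic bases of Cd247, 56.4% lie under Pou2f1 on the other strand and 3.87% under Gm16565 on the same strand, and the strand setting of the counting is not given in the sources used here, so that this value may hold reads of another gene. Cd4, the coreceptor that binds MHC class II and brings LCK to the complex, was at 8405, 9131, 9823 and 6365 in CCR8- and 8639.8, 7877, 9192 and 7611 in CCR8+ replicates. Its log2 fold change was -0.0028 (SE 0.20, -0.45 to 0.45), and every CCR8+ value of this sorted lineage marker fell within the CCR8- range.

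**Figure D3:**
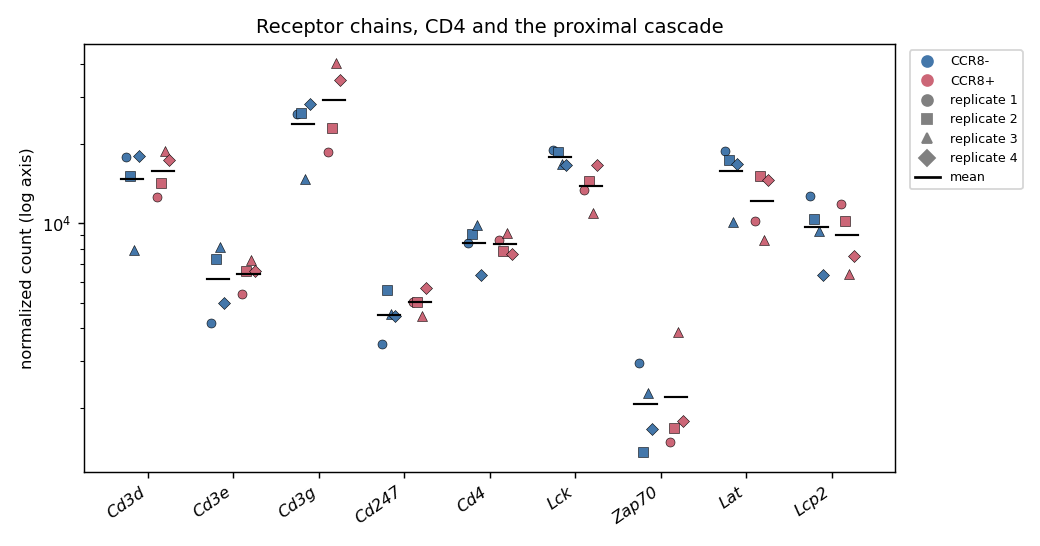
Normalized counts (y axis, log scale) of the CD3 chains, Cd4, Lck, Zap70, Lat and Lcp2 in the 4 CCR8- (blue) and 4 CCR8+ (red) libraries; marker shape gives the replicate number and the black bars the means. The populations overlap for all 9 genes, although 3 of 4 CCR8+ libraries are below every CCR8- library for Lck and 3 of 4 CCR8- libraries are above every CCR8+ library for Lat.

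Set against gene length, the order of the transcripts in CCR8- cells was Cd3d (8083 normalized counts per kilobase of exon), Cd3g (7276), Cd4 (2091), Cd3e (1509) and Cd247 (844). In CCR8+ cells Cd3g (8927) came before Cd3d (8682), and the order of the rest was the same. Over all members and all 8 libraries the mean level per kilobase was highest for Cd2 (11367), an adhesion receptor, followed by Cd3d (8382), Cd3g (8101), Lck (5397) and Lat (5034). The lowest were the RAS activator Sos1 (11.05), the ubiquitin ligase Cbl (15.3) and the TEC family kinase Txk (22.9). Exon lengths count every base in any annotated exon of a gene in GENCODE M21, such as 4080 for Cd3e and 12345 for Cbl. They are not the length of the transcript made in these cells. The order therefore depends in part on the annotation and is not a ranking of transcript molecules.

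Cd3d and Cd3g varied together from library to library, whereas Cd3e did not follow them. Correlations were taken on log2(normalized count + 1). Over the 8 libraries Cd3d and Cd3g had a Pearson r of 0.90 (exact permutation p = 0.000347, 0.00208 after adjustment over the 6 pairs among the 4 CD3 genes) and a Spearman rho of 0.88 (exact permutation p = 0.00724, adjusted 0.0435). Centered within each population r was 0.90, and without CCR8- replicate 3 and CCR8+ replicate 1, the libraries farthest from the median of Cd3d, it was 0.75 over the remaining 6. Cd3d and Cd3e had an r of -0.47 (exact permutation p = 0.24, adjusted 0.48; rho -0.40, p = 0.327, adjusted 0.49). The other 4 pairs had r between -0.11 and 0.59, with adjusted p-values of 0.361 or more by the same exact permutation test. The ratio of Cd3g to Cd3d counts kept between 1.46 and 2.14, while that of Cd3e to Cd3d ranged from 0.236 to 1.03. The relation was singled out after the values were seen, and all 6 pairs share the same libraries and depth.

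**Figure D4:**
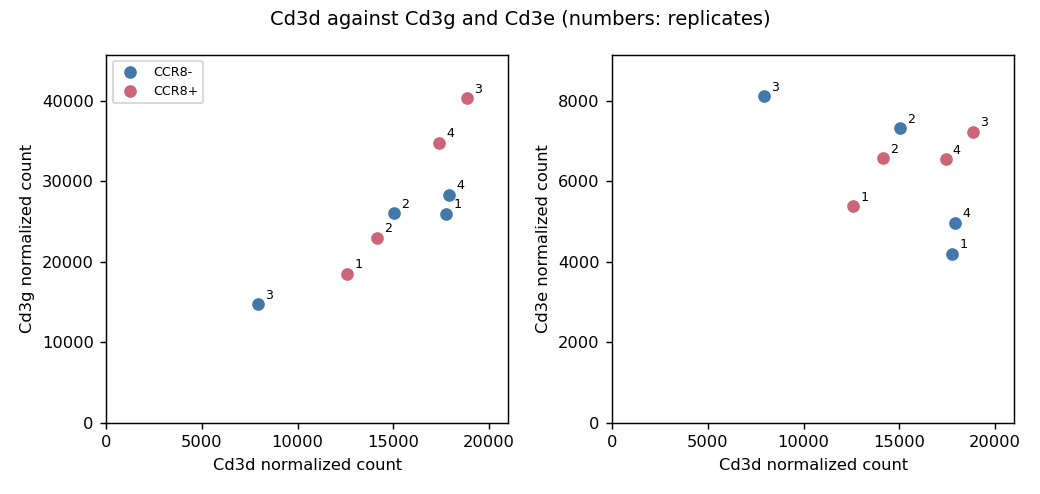
Normalized counts of Cd3g (left, y axis) and Cd3e (right, y axis) against those of Cd3d (x axes) in the 8 libraries, blue for CCR8- and red for CCR8+, with replicate numbers beside the points and all axes from 0. The points of Cd3g climb with Cd3d from CCR8- replicate 3 to CCR8+ replicate 3 (r = 0.90), and those of Cd3e show no such climb (r = -0.47). Both r were taken on log2(normalized count + 1).

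The CD3 genes stand side by side in the genome. In the GRCm38 build, later than the NCBIM37 build used for alignment, Cd3g lies on chromosome 9, 44969572 to 44980431, minus strand, Cd3d on chromosome 9, 44981786 to 44987339, plus strand, and Cd3e on chromosome 9, 44998740 to 45009627, minus strand. The starts of Cd3g and Cd3d are 1355 bases apart and point away from each other, while the start of Cd3e in RefSeq, 45009611, is 27825 bases from that of Cd3d. The 250 bases before the annotated start of each gene are shown because Cd3d and Cd3g varied together and Cd3e did not, and those of Sla2 because it was the member without overlap between the populations. They are from RefSeq on GRCm38.p6, in which 32 of the 40 members had an entry, and are written 5′ to 3′ on the strand of the gene at chr9:44980432-44980681, minus strand, chr9:44981536-44981785, plus strand, chr9:45009612-45009861, minus strand and chr2:156887222-156887471, minus strand in turn. Capitals mark AGGAAG, a form of ETS-type sites, and TGTGGT, a form of RUNX-type sites, on either strand. Other forms, such as the shorter GGAA core of ETS-type sites, were neither marked nor counted.
Cd3g: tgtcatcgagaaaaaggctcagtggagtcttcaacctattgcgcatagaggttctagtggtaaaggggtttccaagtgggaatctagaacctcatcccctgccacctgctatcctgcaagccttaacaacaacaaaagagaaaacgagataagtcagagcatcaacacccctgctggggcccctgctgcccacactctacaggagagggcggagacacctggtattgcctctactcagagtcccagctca
Cd3d: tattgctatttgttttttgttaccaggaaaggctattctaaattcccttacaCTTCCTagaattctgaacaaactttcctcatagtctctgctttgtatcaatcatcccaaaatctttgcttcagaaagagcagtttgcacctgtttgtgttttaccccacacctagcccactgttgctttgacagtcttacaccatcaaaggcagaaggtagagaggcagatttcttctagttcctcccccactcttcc
Cd3e: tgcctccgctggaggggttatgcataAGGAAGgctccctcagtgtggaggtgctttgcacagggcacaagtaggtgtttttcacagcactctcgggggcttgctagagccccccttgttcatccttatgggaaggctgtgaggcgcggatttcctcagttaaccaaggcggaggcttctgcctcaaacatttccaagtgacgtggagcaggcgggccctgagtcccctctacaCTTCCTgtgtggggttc
Sla2: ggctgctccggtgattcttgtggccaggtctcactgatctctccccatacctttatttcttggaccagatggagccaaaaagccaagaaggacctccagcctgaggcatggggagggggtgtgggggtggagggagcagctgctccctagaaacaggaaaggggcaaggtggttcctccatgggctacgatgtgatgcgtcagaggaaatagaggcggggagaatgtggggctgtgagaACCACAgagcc
AGGAAG was found 2 times before Cd3e and 1 time before Cd3d, and not in the windows of Cd3g and Sla2. It is present in 29.5% of the 32851 promoter windows of the same length. TGTGGT was found 1 time, before Sla2, and is in 14% of windows, and TATAAA, the TATA box, was in none of the 4 and is in 12.4%. The E-box CANNTG, present in 66.2% of windows, occurred 3 times before Cd3g, 1 time each before Cd3d and Cd3e and 2 times before Sla2. These letters describe the windows and are not evidence of binding.

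Among the activating kinases and CD45, 4 of 6 genes were below 0 (66.7%), against 47.6% of all genes. The 1 gene with an unadjusted limma p under 0.05 was Prkcq, which was lower (16.7%), against 2.29% of all genes. Lck, the SRC family kinase that starts the cascade, was at 18873, 18615, 16821 and 16662 normalized counts in CCR8- and 13416, 14471, 10929 and 16685 in CCR8+ replicates. CCR8+ replicates 1 to 3 were below every CCR8- library and CCR8+ replicate 4 was above CCR8- replicate 4 alone, with a log2 fold change of -0.37 (SE 0.22, 95% interval -0.84 to 0.11, two-sided exact permutation p = 0.0571). Zap70, whose product docks on the phosphorylated chains, was at 2959, 1354, 2267 and 1659 in CCR8- and 1485, 1668, 3859 and 1778 in CCR8+ replicates. CCR8+ replicate 3 stood above all the rest, the log2 fold change was 0.043 (SE 0.34), and it was -0.27 without that library. The sign also turned with scaling, to -0.026 when each library was given the same total and to -0.034 after quantile normalization.

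Prkcq encodes protein kinase C theta, which couples the receptor to NF-κB. It was at 3799, 4685, 4760.4 and 2501 normalized counts in CCR8- and 3288, 3151, 1502 and 2015 in CCR8+ replicates, 3936 ± 1052 against 2489 ± 871 (SD, n = 4 each). CCR8- replicate 4 lay among the CCR8+ values, and the gene was lower in all 4 same-numbered pairs. Its log2 fold change of -0.69 (SE 0.31, -1.36 to -0.018), 1.61-fold lower in CCR8+ cells, had an unadjusted limma p of 0.045 and a two-sided exact permutation p of 0.114. Without CCR8+ replicate 3 it was -0.47. Ptprc, the gene of CD45, which removes the inhibitory phosphate from LCK, was also lower in all 4 pairs, by little (13034 ± 1464 against 10999.7 ± 2109, log2 fold change -0.26, SE 0.21). Fyn, a kinase related to LCK, and Txk had log2 fold changes of 0.079 (SE 0.44) and -0.30 (SE 0.52), and for Fyn the CCR8- range of 1125 to 6668 held all CCR8+ values.

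Of the 8 adaptors 6 were below 0 (75%), against 47.6% of all genes. At an unadjusted limma p under 0.05 there were 0, against 2.8% of all genes higher and 2.29% lower. Lat, the membrane scaffold that ZAP-70 phosphorylates, was at 18787, 17334, 10105 and 16724 normalized counts in CCR8- and 10192, 15104, 8618 and 14573 in CCR8+ replicates, lower in all 4 pairs. The ranges overlapped only through CCR8- replicate 3, and the log2 fold change was -0.38 (SE 0.28, -0.99 to 0.24). It was -0.58 without CCR8- replicate 3 and -0.23 without CCR8+ replicate 3. Lcp2, which encodes the partner adaptor SLP-76, was at 12719.5, 10381, 9336 and 6357 in CCR8- and 11821, 10211, 6400.1 and 7503 in CCR8+ replicates. Replicate 1 was the highest library of each population, the ranges overlapped for nearly all their width, and the log2 fold change of -0.11 (SE 0.28) was 0.04 without CCR8+ replicate 3. The largest differences among the adaptors were those of Trat1, which encodes a transmembrane adaptor of the receptor complex, Was, the actin regulator mutated in Wiskott-Aldrich syndrome, and Lat. Trat1 was at 5269, 5308, 1836 and 3369.7 in CCR8- and 3153, 3440.2, 731 and 2294 in CCR8+ replicates, with a log2 fold change of -0.81 (SE 0.49) that was -0.31 without CCR8+ replicate 3. Was ranged over 293 to 753 in CCR8- and 251 to 370.3 in CCR8+ cells (log2 fold change -0.76, SE 0.44). Skap1, which links the receptor to integrin adhesion, Grap2, Nck1 and Themis had log2 fold changes of -0.25, -0.12, 0.23 and 0.16.

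The effector enzymes with BCL10 and MALT1 showed 4 of 6 genes below 0 (66.7%), against 47.6% of all genes. At an unadjusted limma p under 0.05 there were 0, against 2.8% of all genes higher and 2.29% lower. Rasgrp1, the diacylglycerol-dependent RAS activator of T cells, was lower in all 4 pairs, at 2859, 1957, 2038 and 1836 normalized counts in CCR8- and 1909, 1283, 1817 and 1359.7 in CCR8+ replicates. Only CCR8+ replicate 1 reached into the CCR8- range, and the log2 fold change was -0.45 (SE 0.23, -0.96 to 0.068, two-sided exact permutation p = 0.0571). Sos1, the other RAS activator of the cascade, was sparse, at 159.6, 85.3, 85.1 and 156 in CCR8- and 323, 22.7, 65 and 40 in CCR8+ replicates. Its log2 fold change of -0.79 had an SE of 1.03 and spanned -3.06 to 1.47, so that these libraries did not resolve a difference in either direction. Bcl10, whose product acts with MALT1 in NF-κB activation, had a log2 fold change of 0.37 (SE 0.33) that was 0.038 without CCR8- replicate 1. Plcg1, Vav1 and Malt1 had log2 fold changes of 0.076, -0.31 and -0.10.

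The 3 accessory surface receptors were abundant in both populations. Cd2, which binds CD48 on partner cells, was at 20647 ± 5017 normalized counts in CCR8- and 18934 ± 4176 in CCR8+ cells (log2 fold change -0.12, SE 0.27). Cd5, an inhibitory receptor whose level follows the strength of receptor signals, was at 5147, 6627, 6717 and 4253 in CCR8- and 5321, 5716, 3725 and 4049 in CCR8+ replicates (log2 fold change -0.27, SE 0.23, -0.78 to 0.24). Its relative Cd6 had a log2 fold change of 0.12 (SE 0.21). For all 3 the intervals included 0 and lay within -1 and 1.

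The lowest fold changes of all members, those of Pag1 and Csk, and the highest, that of Ptpn2, were among the negative regulators. Of these 12 genes 9 were below 0 (75%), against 47.6% of all genes. At an unadjusted limma p under 0.05 there were 3 lower (25%), against 2.29% of all genes, none of them called after adjustment. Trat1 (-0.81) and Sos1 (-0.79), of other roles, were below Sla2 (-0.77) and Dgka (-0.73). Pag1 and Csk act together, since the membrane adaptor encoded by Pag1 recruits the kinase CSK, which phosphorylates the inhibitory tyrosine of LCK. Pag1 was at 869.8, 967, 1479 and 474 normalized counts in CCR8- and 249.7, 805, 71.8 and 193 in CCR8+ replicates, 947 ± 414 against 330.0 ± 325 (SD, n = 4 each). CCR8+ replicate 2 lay among the CCR8- values and the other 3 CCR8+ libraries lay below all of them. The log2 fold change of -1.92 (SE 0.66, -3.37 to -0.48), 3.79-fold lower in CCR8+ cells, had an unadjusted limma p of 0.0136 and a two-sided exact permutation p of 0.0571. It was -1.37 without CCR8+ replicate 3 and -2.52 without CCR8+ replicate 2. Csk was at 1699, 1276, 1293 and 736 in CCR8- and 941, 1043, 25.1 and 683 in CCR8+ replicates, lower in all 4 pairs. CCR8+ replicate 3 was far below every other library, and the log2 fold change of -1.72 (SE 0.99, -3.89 to 0.45) was -0.45 without it.

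Sla2 was the only member whose populations did not overlap. It encodes SLAP2, an adaptor that works with CBL to take the receptor from the surface. Sla2 lies on chromosome 2, 156872457 to 156887192, minus strand in GRCm38, and its promoter window is among those printed above. It was at 2115, 2116, 1531 and 1913 normalized counts in CCR8- and 1263, 1460.2, 598 and 1418 in CCR8+ replicates, 1919 ± 276 against 1185 ± 401. The CCR8+ values ran from 598 to 1460.2 and the CCR8- values from 1531 to 2116, so that all 4 CCR8+ libraries lay below the lowest CCR8- library, replicate 3. The log2 fold change was -0.77 (SE 0.30, -1.43 to -0.097), 1.7-fold lower in CCR8+ cells, with an unadjusted limma p of 0.0283. The two-sided exact permutation p was 0.0286, the smallest that the 70 assignments of 4 against 4 libraries allow. Any gene without overlap has this permutation p, so it adds nothing to the lack of overlap, which 2.03% of all genes had in this direction. Without CCR8+ replicate 3 the log2 fold change was -0.47, and 23.6% of the exonic bases of Sla2 lie under Rab5if on the other strand. Its relative Sla leaned the other way, at 9461, 7450.1, 7639 and 6511 in CCR8- and 9411, 8190.3, 11378 and 9501 in CCR8+ replicates (log2 fold change 0.31, SE 0.20, exact permutation p = 0.0857), and the difference between these 2 genes was not tested.

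Dgka and Dgkz encode the diacylglycerol kinases alpha and zeta, which remove the lipid that activates RASGRP1 and protein kinase C theta. Dgka was at 3159.9, 5179.6, 4431 and 2913 normalized counts in CCR8- and 3599, 2598, 1771 and 1670.5 in CCR8+ replicates, 3921 ± 1071 against 2409.6 ± 895. CCR8+ replicate 1 lay within the CCR8- range, above CCR8- replicates 1 and 4, and the gene was lower in 3 of 4 pairs. The log2 fold change was -0.73 (SE 0.29, -1.38 to -0.09; unadjusted limma p = 0.0289, two-sided exact permutation p = 0.114). A stretch of 2.2% of the exonic bases of Dgka is shared with the melanoma gene Pmel on the other strand, which ranged over 32.5 to 5829.6 in CCR8- and 50.2 to 7301 in CCR8+ libraries, and its part in the value of Dgka was not tested. Dgkz had a log2 fold change of -0.43 (SE 0.37).

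Ptpn2, a phosphatase acting on LCK and on cytokine signaling, had the highest fold change of all members. It was at 687, 2556, 2093 and 2057 normalized counts in CCR8- and 3528, 2302, 2382 and 2887 in CCR8+ replicates, with CCR8- replicate 1 far below the rest. The log2 fold change of 0.72 (SE 0.38, -0.10 to 1.55) was 0.30 without that library. The phosphatases Ptpn6, which encodes SHP-1, and Ptpn22 had log2 fold changes of -0.43 (SE 0.34) and 0.17 (SE 0.30). The ubiquitin ligases Cbl and Cblb were at -0.55 (SE 1.03) and -0.38 (SE 0.43), and Ubash3a, a suppressor of receptor signaling, at -0.099 (SE 0.25).

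**Figure D5:**
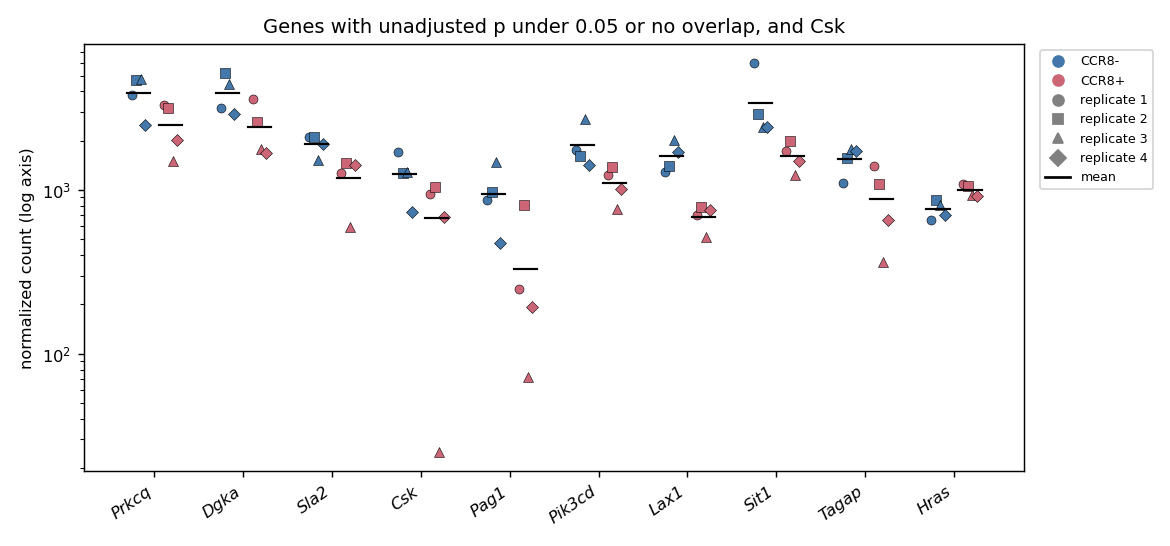
Normalized counts (y axis, log scale) of the members and other pathway genes with an unadjusted p under 0.05 or no overlap, and of Csk, in 4 CCR8- (blue) and 4 CCR8+ (red) libraries; shape gives the replicate number and black bars the means. Of the members Sla2 alone shows no overlap, CCR8+ replicate 3 is the lowest library for Prkcq, Sla2, Csk and Pag1, and among the other genes Hras is higher and Pik3cd, Lax1 and Sit1 lower without overlap.

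Further genes of the pathway, listed from general knowledge, gave the setting for these values. Of 55 listed genes 51 were tested, and Trac, Trbc1, Trbc2 and Gab2 were not analysed here, so the antigen-binding chains themselves could not be followed. Their median log2 fold change was -0.055, 0 were called by limma or edgeR, and at an unadjusted limma p under 0.05 there were 0 higher in CCR8+ cells, against 2.8% of all genes, and 4 lower (7.84%), against 2.29%. In all 4 same-numbered pairs 3 were higher, against 8.44% of all genes, and 8 lower (15.7%), against 8.1%. With no overlap there were 1 higher, against 2.37%, and 3 lower, against 2.03%. Hras, a RAS family GTPase, was the 1 gene higher in CCR8+ cells without overlap, at 660.0 to 869.5 normalized counts in CCR8- and 924 to 1093 in CCR8+ cells (log2 fold change 0.40, SE 0.24). The others higher in all 4 pairs were Orai1, the pore of the calcium channel, and Rac1, with log2 fold changes of 0.49 (SE 0.25) and 0.32 (SE 0.22), which were 0.31 and 0.17 without CCR8- replicate 1. Of the exonic bases of Rac1, 51.4% lie under Daglb on the other strand.

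The 3 genes lower without overlap were the membrane adaptors Lax1 and Sit1 and the kinase subunit Pik3cd. Lax1, an inhibitory adaptor related to LAT, was at 1284, 1397, 2029 and 1701 normalized counts in CCR8- and 703, 782, 515 and 750.4 in CCR8+ replicates, with no overlap. Its log2 fold change of -1.22 (SE 0.26, -1.78 to -0.65) had an unadjusted limma p of 0.000603, and it was the 1 pathway gene that DESeq2 called (adjusted p = 0.0206), against an adjusted p of 0.829 by limma. Sit1, another inhibitory adaptor, was at 5931, 2914, 2421 and 2418 in CCR8- and 1736, 1994, 1235 and 1493 in CCR8+ replicates, again with no overlap (log2 fold change -0.996, SE 0.31), and -0.70 without CCR8- replicate 1. Lax1 and Sit1 are in a gene list that the study drew from these same libraries, so that their direction is not independent evidence. Pik3cd, the leukocyte catalytic subunit of PI3 kinase, was at 1419 to 2699 in CCR8- and 768 to 1389 in CCR8+ cells (log2 fold change -0.76, SE 0.28). Tagap, a GTPase-activating protein of T cells, had a log2 fold change of -0.97 (SE 0.39) that was -0.61 without CCR8+ replicate 3. Of its exonic bases, 23.2% lie under E430024P14Rik on the other strand.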

How the data were processed

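The authors prepared libraries with a low-input kit, removed adapters with Cutadapt and mapped the reads to NCBIM37 with hisat2, using those that mapped uniquely. The submitters' processing notes also name HTSeq, but versions and the strand setting are not given in the sources used here. What the authors deposited is 1 signal value for each gene in each library, called FPM by the authors and said to be normalized to library size with intergenic reads. Their totals were 11469410 to 14394101 per library, and 100% of values were whole multiples of the value of 1 read within 0.1, so that reads could be recovered. The number of per-sample columns not used was 0.

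Libraries were grouped by their labels. Because the values are normalized, limma 3.58.1 (R 4.3.3) with an intensity trend was fitted on log2(normalized count + 1) over the 11032 genes with a mean of 10 or more, with Benjamini-Hochberg adjustment over all of them. Of the 11233 listed genes 20 were at 0 in every library. Exact two-sided permutation tests over 70 label assignments were run for single genes. edgeR 4.0.16 (quasi-likelihood) and DESeq2 1.42.0 (Wald), the tool named in the methods of the study, were run on recovered reads as alternatives, and the scripts were tested on simulated data. Other alternatives were scalings, pseudocounts, filters, variance models, the replicate number as a block, and libraries left out.

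Members and lists were chosen with earlier results of these data known. Some genes of the other pathway and marker lists are not reported here; that choice came after their values were known, and list counts leave them out. Named in full were the CD3 chains, Cd4, Lck, Zap70, Lat, Lcp2 and members with no overlap or an unadjusted p under 0.05, and by role up to 3 genes of largest fold change. Further values were added after they were seen. Positions are from GENCODE M21 (GRCm38) and promoter windows from RefSeq. The NK cell (4.93 to 412 in CCR8- and 0 to 208 in CCR8+ libraries), dendritic cell (234 to 721 and 343 to 578), B cell (17.0 to 259 and 0 to 48.7) and fibroblast markers (0 to 795 and 13.7 to 273) summed to these normalized counts, and the gamma delta T cell markers were not analysed here.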

Additional observations from a re-analysis of the deposited data

Results flagged for a closer look

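In 7 of the 80 sets of 4 libraries, 2 for each member, a library stood apart from the other 3 by more than Dixon's critical ratio of 0.829. Chance exceeds it in about 1 in 20 such sets of normally distributed values. The ratio was taken on normalized counts and not on the log2 scale of the fold changes. Zap70 was at 3859 normalized counts in CCR8+ replicate 3, against 1485 to 1778 in the other CCR8+ libraries. Malt1, which encodes a protease that acts in NF-κB activation, was also high in that library, at 1468 against 922 to 1005. In CCR8+ replicate 1, Themis, a regulator of receptor signaling in thymocytes, was at 3040.3 against 1574 to 1792, and Sos1 at 323 against 22.7 to 65.0. Nck1, an adaptor to the actin cytoskeleton, was low in CCR8+ replicate 4, at 439 against 658 to 697. In CCR8- cells Ptpn22 was at 1723 in replicate 1 against 4164 to 4326, and Dgkz at 2235 in replicate 3 against 630.3 to 881. On that scale of counts the other 73 sets, that of Csk in CCR8+ cells among them, were under the critical ratio. Csk was nonetheless at 25.1 in CCR8+ replicate 3, against 683 to 1043 in the other CCR8+ libraries. The ratio on the log2 scale, which weighs low values more, was not taken.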

How the results depend on the processing

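The count of members called was 0 under every alternative run, by limma, edgeR and DESeq2. With the replicate block limma called 0 members and 1 of all genes, edgeR 0 and 0, and DESeq2 0 members and 126 of all genes, against 27 without it, and the block changed no call of a member. Nearest to the limit was Trat1, with an adjusted p of 0.0517 by DESeq2 with the block and 0.758 by limma with the block. Deviations from the population means correlated by 0.0682, 0.138, 0.108 and 0.217 within pairs 1 to 4. Each CCR8+ library correlated best with the CCR8- library of its own number, while CCR8- replicate 1 correlated best with CCR8+ replicate 3 (0.0954). The sources used here do not state whether a number stands for the same mouse in both populations, so the numbers were not taken to pair the libraries. Members with no overlap numbered 2 after quantile normalization (4.31% of all genes) and 1 to 8 with libraries left out (6.35% to 12.6% of all genes). They numbered 2 without CCR8- replicate 1 and CCR8+ replicate 3 (12% of all genes), an alternative chosen after seeing the data. Members with an unadjusted p under 0.05 numbered 1 in limma without the trend, against 465 of all 11032 genes. They numbered 1 to 4 with libraries left out (379 to 702 of all genes) and 1 without those 2 libraries (510 of 10959). The median of the members ran from -0.29 (without CCR8- replicate 4) to -0.15. Of the other pathway genes DESeq2 called 1, and 1 with the replicate block. With no overlap there were 4 to 13 of them with libraries left out (6.35% to 12.6% of all genes) and 11 without those 2 libraries (12% of all genes, against 4.4% with all). At an unadjusted p under 0.05 there were 2 in limma without the trend and 8 in DESeq2 with the replicate block (465 and 995 of all 11032 genes). There were 2 to 9 with libraries left out (379 to 702 of all genes), and the median of the other pathway genes ran from -0.19 to -0.043. Of the genes followed under every setting, Zap70 reversed to -0.026 with the same total per library, to -0.034 after quantile normalization and to -0.070 without those 2 libraries, when Cd3e was at -0.12 and Lcp2 at 0.19. With libraries left out the lowest and highest values were -0.21 and 0.37 for Cd3d, -0.058 and 0.26 for Cd3e, -0.12 and 0.52 for Cd3g, -0.13 and 0.077 for Cd4, -0.27 and 0.39 for Zap70, and -0.30 and 0.040 for Lcp2. The cause of these shifts was not tested. With 4 libraries against 4, differences within the intervals given could not be resolved, and values of 3 reads or fewer were not told apart from 0.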

Other observations

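Beside Csk, Sos1 and Pag1, the members with the widest spread between libraries of the same population on the log2 scale were Cbl and Plcg1, and the genes described here were singled out after their values were seen. Cbl, a ubiquitin ligase that marks the activated receptor for degradation, was at 48.3, 179, 499 and 152 normalized counts in CCR8- replicates 1 to 4 and 323, 123, 20.53 and 168 in CCR8+ replicates 1 to 4. CCR8- replicate 3 was the highest library of all and CCR8+ replicate 3 the lowest. Plcg1, the phospholipase that makes the second messengers of the cascade, was at 82.7, 282, 951 and 271 in CCR8- cells, from the lowest value in replicate 1 to the highest in replicate 3. In CCR8+ cells it kept to 275 to 312. Ptpn6, the gene of the phosphatase SHP-1, was at 1744, 2114, 3970.1 and 2621 in CCR8- and 2864, 2291, 1124 and 1574 in CCR8+ replicates, with the extremes again in replicate 3 of each population, and Cblb at 1167, 420.4, 639 and 872 and 447, 317, 785 and 864. None of the 4 passed the limma test between the populations, with log2 fold changes of -0.55, 0.076, -0.43 and -0.38 and intervals that included 0.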
